A study of Mus musculus with 17 samples.

Results

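The 9 genes described here are 8 receptors for extracellular nucleotides or adenosine and the ectoenzyme gene Entpd1. They were chosen by symbol from the joint table of read counts, as 9 of its 22859 genes, with earlier results of these data known. Counts of members called are thus set beside the share of all genes as a description only. All 9 passed the filter on low counts. The receptors are P2rx4 and P2rx7 (ion channels opened by ATP), P2ry2, P2ry6, P2ry12 and P2ry14 (G protein-coupled P2Y receptors) and Adora2b and Adora3 (adenosine receptors). Entpd1 encodes CD39, which sits on the cell surface and breaks down ATP and ADP.

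Cells that are stressed or damaged release ATP and other nucleotides, which act on neighbouring cells through P2X channels and P2Y receptors. CD39 removes ATP and ADP outside the cell, CD73 (the product of Nt5e) turns the remaining AMP into adenosine, and adenosine then acts on its own receptors. In macrophages, P2RX7 is best known for its part in inflammasome activation and the release of IL-1β, P2RY6 for sensing UDP, and P2RY12 as an ADP receptor that marks microglia in the brain.

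The libraries were bulk RNA-seq of macrophages sorted from collagenase-digested synovium, the membrane lining the joint, of adult mice labelled Fcgr2b-KO. Fcgr2b encodes the inhibitory Fc receptor for IgG, and all groups carry this label, controls included, so no comparison here is with mice labelled wild-type. Mice had received immune complexes (IC; per the methods of the study ovalbumin with rabbit antibody against it) into a vein and were killed 8 h later, or were controls, titled healthy in the labels, for which no injection is named. The 3 sorted subsets were LYVE1+CX3CR1+ macrophages (titled Lyve1), MHCII+CD11c- macrophages (titled IAIE) and MHCII+CD11c+ macrophages (titled CD11c). There were 3 libraries of each subset from control mice and 3, 3 and 2 libraries of the same subsets after IC, 17 in all. The labels do not say whether the libraries of a group came from separate mice or from pools, so p-values measure only the spread between these libraries.

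Libraries held between 2301913 and 7248939 counts. Counts were assigned to the targeted gene Fcgr2b in every library, from 167 to 1168 counts (69.3 to 248 CPM, read counts scaled to a common library total). The counts thus do not bear out a loss of its transcripts in the libraries labelled Fcgr2b-KO. Which part of the gene was deleted is not given in the sources used here, so the genotype stands only as labelled. The summed level of 6 macrophage marker genes was 4821 to 7405 CPM in the LYVE1+CX3CR1+ and MHCII+CD11c- libraries, 1430 to 2236 CPM in MHCII+CD11c+ controls and 2454 to 3113 CPM in MHCII+CD11c+ macrophages after IC. Itgax, the gene of CD11c, was at 275 to 443 CPM in MHCII+CD11c+ libraries and at most 16 CPM in all others, and the summed MHCII genes were at 28.5 to 58.6 CPM in LYVE1+CX3CR1+ and at 8265 to 8779 CPM in MHCII+CD11c- controls. After IC, Lyve1 in MHCII+CD11c- libraries, at 2337, 1455 and 2458 CPM, overlapped its level of 1727 to 2338 CPM in LYVE1+CX3CR1+ controls, and 0 of 5 markers of the LYVE1+CX3CR1+ sort were called between these subsets in either condition. Replicate 2 stood apart in 2 control groups. In MHCII+CD11c+ controls it had Lyve1 at 382 CPM against 29.8 and 25.3 CPM in the other two, and differed from them by a chi-square per degree of freedom of 36.6 and 27.7, against 12.1 between those. In MHCII+CD11c- controls it had Lyve1 at 1131 CPM against 695 and 730 CPM, with a chi-square per degree of freedom of 39.2 and 28.4 against 11.8. With all libraries thinned to the smallest total, LYVE1+CX3CR1+ macrophages after IC held 12951 ± 1230 detected genes (SD, n = 3), against 16933 ± 521 (n = 3) in their controls.

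Several of the 9 genes are neighbours. On GRCm38 (mm10) coordinates of GENCODE M21, P2rx7 (chromosome 5, 122643911 to 122691432, plus strand) ends 16.1 kb before P2rx4 (chromosome 5, 122707544 to 122729738, plus strand). P2ry6 (chromosome 7, 100937630 to 100974649, minus strand) lies 21.9 kb from P2ry2 (chromosome 7, 100996568 to 101012866, minus strand). P2ry14 (chromosome 3, 59113855 to 59153618, minus strand) and P2ry12 (chromosome 3, 59216272 to 59262871, minus strand) are 62.7 kb apart, and both lie within Med12l on the opposite strand. Med12l held 311 counts over all libraries, against 4189 for P2ry12 and 495 for P2ry14. Adora3 (chromosome 3, 105870858 to 105908926, plus strand) shares 779 exonic bases with Tmigd3 on the same strand, which held 6 counts, so the split of reads between both is uncertain. Adora2b is at chromosome 11, 62248984 to 62266453, and Entpd1 at chromosome 19, 40612366 to 40741602, both on the plus strand.

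Upstream sequence is shown for P2rx4 and P2rx7, neighbours with a smaller and a larger range over the libraries, and for Adora2b, which differed in the opposite direction to P2rx7. The sequences are RefSeq's on GRCm38.p6, on the plus strand, at chr5:122707294-122707543 for P2rx4, chr5:122643677-122643910 for P2rx7 (its most upstream RefSeq start) and chr11:62248734-62248983 for Adora2b. Bases inside the gene model were left out. The windows of P2ry12 and Entpd1 overlap exons of Med12l and Tctn3 and are not shown. Those of P2ry2, P2ry14 and Adora3 were too short without the bases inside the gene model and are not shown either. Capitals mark a match to 1 of 3 motifs searched on both strands over 250 bases before the start, GAGGAA (the core of PU.1 sites), TGANTCA (AP-1) and TGCTGA (a MAF half-site). No 2 matches overlapped.
P2rx4: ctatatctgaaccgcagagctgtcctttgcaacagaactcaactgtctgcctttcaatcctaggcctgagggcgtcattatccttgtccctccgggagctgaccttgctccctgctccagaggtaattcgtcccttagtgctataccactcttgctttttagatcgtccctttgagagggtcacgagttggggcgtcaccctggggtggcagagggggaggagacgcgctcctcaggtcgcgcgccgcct
P2rx7: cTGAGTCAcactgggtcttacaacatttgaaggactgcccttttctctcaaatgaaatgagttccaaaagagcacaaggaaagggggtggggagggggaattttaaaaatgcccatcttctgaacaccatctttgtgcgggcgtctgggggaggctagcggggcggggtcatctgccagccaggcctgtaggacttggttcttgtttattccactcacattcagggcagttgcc
Adora2b: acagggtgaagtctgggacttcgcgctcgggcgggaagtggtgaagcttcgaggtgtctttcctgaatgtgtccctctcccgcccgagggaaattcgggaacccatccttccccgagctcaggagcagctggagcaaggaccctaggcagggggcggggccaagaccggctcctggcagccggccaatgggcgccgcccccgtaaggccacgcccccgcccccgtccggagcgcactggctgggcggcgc
The P2rx7 window holds TGANTCA 249 to 243 bases before the start, and the P2rx4 and Adora2b windows hold none of the 3 motifs. Over the 8 members with a sequence (P2ry6 had none), TGANTCA was found for 3 (P2rx7, P2ry14 and Adora3), GAGGAA for 2 (P2ry14 and Adora3) and TGCTGA for 0. Of 27026 promoters of the same length, 6.85% held TGANTCA, 23.1% GAGGAA and 15.8% TGCTGA. A match describes the letters only, and no binding was measured.

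Expression of the 9 genes spanned a wide range. Per kilobase of exon in LYVE1+CX3CR1+ controls, Entpd1 was the highest with 64.3 ± 8.35 CPM per kb (SD, n = 3), followed by P2ry6 (45.7 ± 8.10), P2ry12 (42.5 ± 12), P2rx7 (34.6 ± 1.92) and P2rx4 (19.1 ± 0.718). Adora2b (2.87 ± 0.884), P2ry2 (0.876 ± 0.448), P2ry14 (0.592 ± 0.183) and Adora3 (0.121 ± 0.209) were far lower. In this order P2ry6, P2ry12 and P2rx7 overlapped between libraries, as did P2ry2 and P2ry14. In MHCII+CD11c+ controls the order was different, with Entpd1 (24.7 ± 2.95), P2ry6 (16.1 ± 9.32), P2rx4 (14.7 ± 3.61), Adora2b (11.2 ± 3.56) and P2rx7 (8.40 ± 5.05) at the top, each overlapping the next, and P2ry12 at 2.63 ± 1.77 CPM per kb. The rest of the values are in CPM and are compared only between libraries for the same gene.

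**Figure D1:**
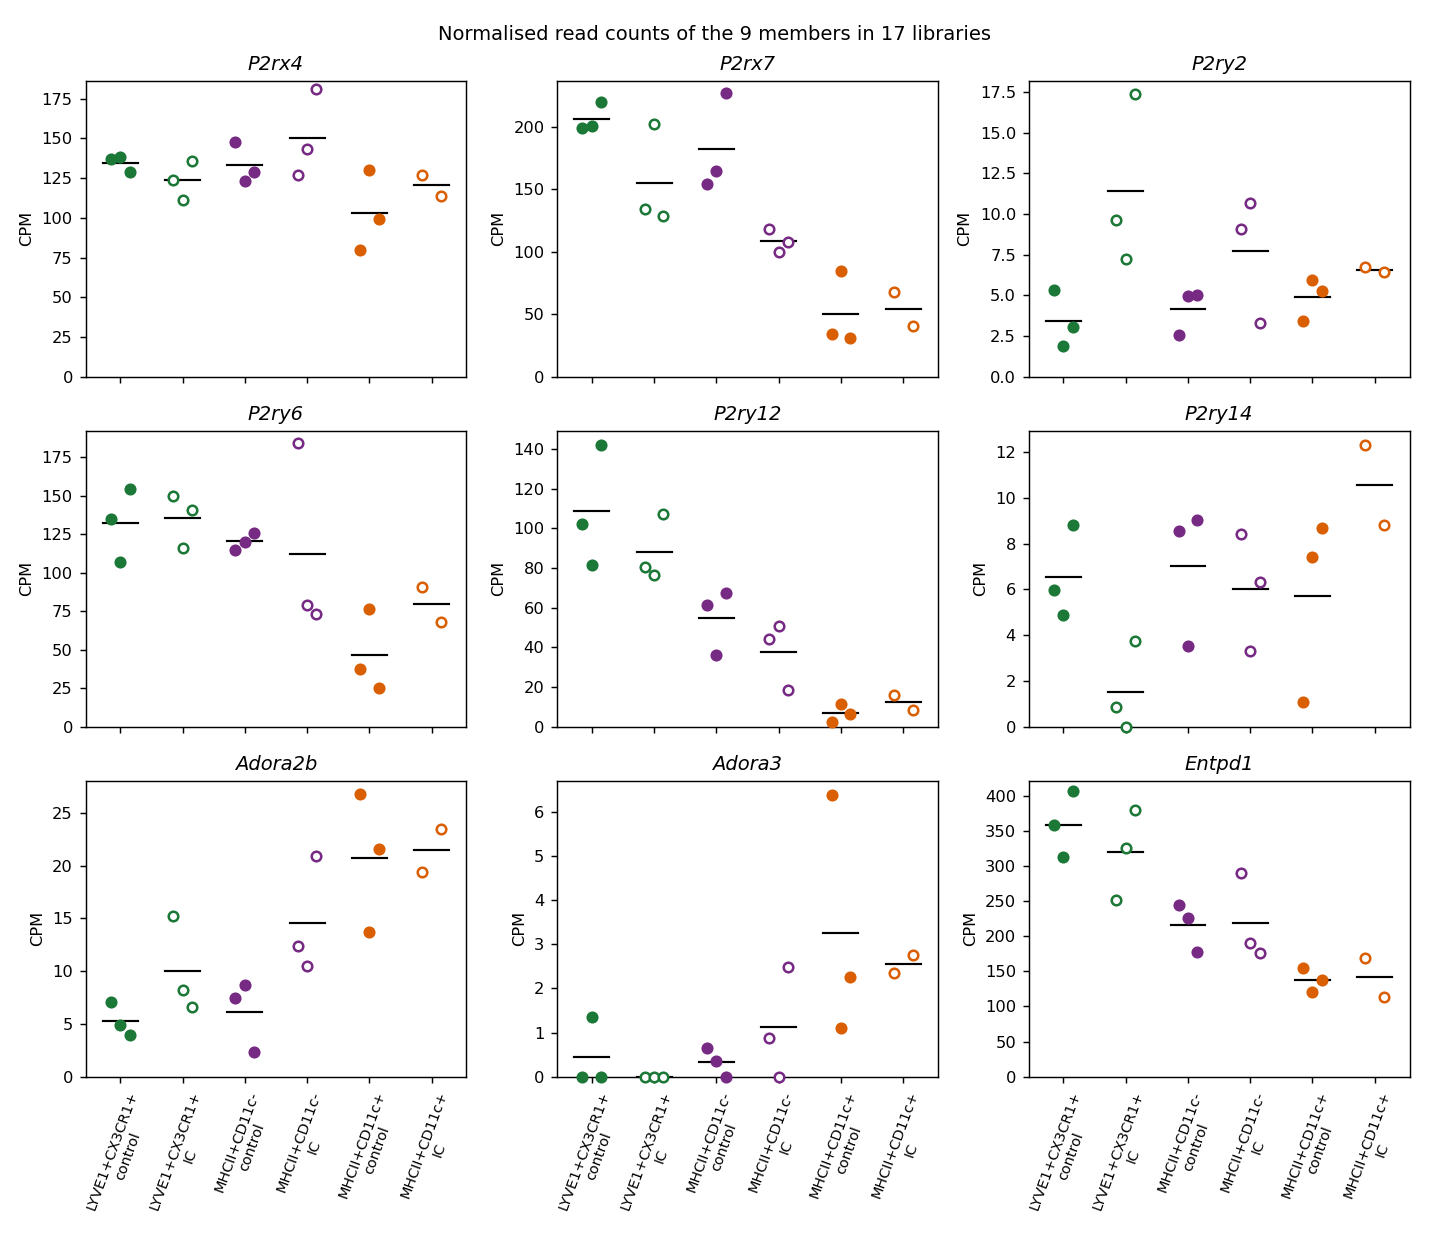
Normalised read counts (CPM, linear axis from 0) of each gene in the 17 libraries, 1 point per library, filled for control and open for IC, with a black line at the group mean. P2rx7, P2ry12 and Entpd1 are lowest in the MHCII+CD11c+ groups, and P2rx4 stays between 79.8 and 181 CPM in all 17 libraries. Adora2b has its highest group means in the MHCII+CD11c+ groups, where its libraries overlap some of the other subsets after IC.

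In control mice, LYVE1+CX3CR1+ macrophages expressed more P2rx7, P2ry6, P2ry12 and Entpd1, and less Adora2b, than those of the MHCII+CD11c+ subset. The comparison asks how these subsets differ without IC. The size ran from 2.61-fold for Entpd1 to 15.9-fold for P2ry12. By edgeR's quasi-likelihood test, 5 of 9 members were called at an adjusted p under 0.05, 4 higher and 1 lower, where 15.2% of all 15272 genes tested were called, 7.83% higher and 7.40% lower. The median log2 fold change was 0.38 over the 9 members and 0.05 over all genes.

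Of the channels, P2rx7 was measured at 199, 201 and 220 CPM in LYVE1+CX3CR1+ controls and at 34.5, 84.9 and 31.0 CPM in MHCII+CD11c+ controls. The groups were well apart, and the highest of the MHCII+CD11c+ libraries was the replicate 2 that stood apart by Lyve1. The difference was 2.03 ± 0.30 on the log2 scale (fitted log2 fold change ± SE; adjusted p = 8.16e-05), or 4.08-fold. Its neighbour P2rx4, which encodes a channel found largely on lysosomes, was at 137, 138 and 129 CPM against 79.8, 130 and 99.5 CPM, with overlapping libraries and a difference of 0.38 ± 0.19 (adjusted p = 0.211; 95% interval -0.02 to 0.78). Voom with quality weights called P2rx4 (0.48, adjusted p = 0.0496), and without replicate 2 of the MHCII+CD11c+ controls edgeR gave 0.59 (adjusted p = 0.0518). Over all 17 libraries the highest value was 2.27 times the lowest for P2rx4 and 7.32 times for P2rx7.

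Of the P2Y receptors, P2ry12 had the largest difference. Its values were 102, 81.4 and 142 CPM in LYVE1+CX3CR1+ controls and 2.34, 11.3 and 6.43 CPM in MHCII+CD11c+ controls, where the second group rested on 11, 61 and 17 counts. No library of either group came near the other, and the fitted difference was 3.99 ± 0.45 (adjusted p = 1.05e-05). P2ry6, the UDP receptor, was at 135, 107 and 154 CPM against 37.2, 76.7 and 25.3 CPM, a difference of 1.49 ± 0.35 (adjusted p = 0.00742) with no overlap. Without replicate 2 of the MHCII+CD11c+ controls, the differences grew to 2.65 for P2rx7, 4.72 for P2ry12 and 2.07 for P2ry6, and all 3 stayed called (adjusted p = 1.3e-07, 1.2e-06 and 7.99e-05). P2ry2, a receptor for ATP and UTP, and P2ry14, a receptor for UDP-glucose, were low, at 1.89 to 5.94 and 1.06 to 8.79 CPM in these 6 libraries, and their differences of -0.49 ± 0.69 and 0.21 ± 0.85 did not pass the test (adjusted p = 0.726 and 0.916).

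Adora2b, the low-affinity adenosine receptor coupled to cAMP, went the other way. It was measured at 7.09, 4.86 and 3.91 CPM in LYVE1+CX3CR1+ controls and at 26.8, 13.7 and 21.6 CPM in MHCII+CD11c+ controls. The libraries did not overlap, and the difference was -1.96 ± 0.52 (adjusted p = 0.0116), 3.89-fold higher in MHCII+CD11c+ macrophages. This call was lost without replicate 1 of the MHCII+CD11c+ controls (-1.73, adjusted p = 0.0602) and without replicate 3 of the LYVE1+CX3CR1+ controls (-1.81, adjusted p = 0.0651). Adora3 was close to the floor of 3 counts per library, which lay between 0.419 and 1.24 CPM, with 0, 5 and 0 counts against 30, 6 and 6, and its difference did not pass the test (adjusted p = 0.280), although voom with quality weights called it (-4.62, adjusted p = 0.00113).

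Entpd1 was the most abundant of the 9 genes in LYVE1+CX3CR1+ macrophages. It was measured at 358, 312 and 406 CPM in LYVE1+CX3CR1+ controls, 244, 226 and 177 CPM in MHCII+CD11c- controls and 154, 121 and 138 CPM in MHCII+CD11c+ controls, so that the 3 subsets did not overlap. LYVE1+CX3CR1+ and MHCII+CD11c+ macrophages differed by 1.38 ± 0.21 (adjusted p = 6.2e-05). The steps to and from the MHCII+CD11c- subset, 0.73 ± 0.21 and -0.65 ± 0.21, did not pass the test (adjusted p = 0.0912 and 0.0613), although voom with quality weights called the first (adjusted p = 0.00727).

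Marker genes of macrophages and of other cell types differed between MHCII+CD11c+ and LYVE1+CX3CR1+ controls. All 6 macrophage markers were called lower in the MHCII+CD11c+ controls. The summed level of 3 monocyte markers was 558 to 1168 CPM in MHCII+CD11c+ controls against 18.4 to 38.1 CPM in LYVE1+CX3CR1+ controls. Ccr2 made up most of this sum, at means of 862 against 26.4 CPM. For 4 dendritic cell markers the sum was 83 to 135 against 11.3 to 14.9 CPM. For 4 neutrophil markers it was 56.1 to 211 against 0 to 6.56 CPM. After IC the neutrophil sum in MHCII+CD11c+ libraries was 1.62 and 0.55 CPM. In bulk RNA, fewer cells that carry a transcript and less of it per cell cannot be told apart, and the part of these cell types in the differences was not tested. The macrophage marker sum was lower in MHCII+CD11c+ controls, as were P2rx7, P2ry6, P2ry12 and Entpd1, while P2rx4 did not pass edgeR's test and Adora2b was higher.

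Much the same members separated the MHCII+CD11c+ from the MHCII+CD11c- subset in controls. P2rx7, P2ry6 and P2ry12 were lower and Adora2b was higher in MHCII+CD11c+ macrophages, which is 4 of 9 members called, 1 higher and 3 lower, where 8.66% of all genes were called, 3.67% higher and 4.99% lower. This comparison shares its MHCII+CD11c+ libraries with the previous one. The medians were -0.37 over the members and -0.03 over all genes.

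P2rx7 was at 154, 165 and 227 CPM in MHCII+CD11c- controls, above every MHCII+CD11c+ library, and the difference was -1.85 ± 0.30 (adjusted p = 0.000478). P2ry12 was at 61.4, 36.1 and 67.5 CPM, also without overlap, and its difference was -3.01 ± 0.46 (adjusted p = 0.000358), an 8.06-fold step. P2ry6 was at 115, 120 and 126 CPM, with a difference of -1.36 ± 0.35 (adjusted p = 0.0232). Adora2b was at 7.46, 8.66 and 2.34 CPM, all below the MHCII+CD11c+ libraries, with a difference of 1.72 ± 0.52 (adjusted p = 0.0418). The call of P2rx7 was kept under each alternative setting tried, while those of P2ry6 and Adora2b were each lost when any 1 of 4 libraries was left out (replicate 1 or 3 of either group), with adjusted p between 0.0579 and 0.1 for P2ry6 and between 0.0845 and 0.165 for Adora2b. Adora2b was also not called with no low-count filter (adjusted p = 0.0563), in a fit of the compared groups alone (adjusted p = 0.0790) and at equal depth (adjusted p = 0.124). With 5 surrogate variables in the model, P2ry12 (-2.42, adjusted p = 0.136), P2ry6 (adjusted p = 0.159) and Adora2b (adjusted p = 0.256) lost their calls. Without replicate 2 of the MHCII+CD11c- controls, all 4 members stayed called, with -1.91 for P2rx7, -3.24 for P2ry12, -1.36 for P2ry6 and 2.04 for Adora2b (adjusted p = 0.000807, 0.000148, 0.0425 and 0.0405). All 6 macrophage markers were called lower in MHCII+CD11c+ macrophages here too. The sums of monocyte and dendritic cell markers were 229 to 498 and 19.8 to 71.5 CPM in the MHCII+CD11c- controls. The neutrophil sum was 0.334 to 127 CPM there, overlapping the 56.1 to 211 CPM of the MHCII+CD11c+ controls. Of 3 monocyte, 4 dendritic cell and 4 neutrophil markers, 0 were called in this comparison. The part of these cell types was not tested.

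Between LYVE1+CX3CR1+ and MHCII+CD11c- macrophages of control mice, 0 of 9 members were called by edgeR, where 1.56% of all genes were. An unadjusted p under 0.05 was found for 2 members, P2ry12 and Entpd1, and for 1564 genes. DESeq2 called 0 members, and voom with quality weights called the same 2 (adjusted p = 0.0112 for P2ry12). P2ry12 was at 81.4 to 142 CPM in the first subset and at 36.1 to 67.5 CPM in the second, a difference of 0.98 ± 0.41 (adjusted p = 0.390) with no overlap, and of 0.75 (adjusted p = 0.539) without replicate 2 of the MHCII+CD11c- controls. For P2rx4, P2rx7 and P2ry6 the differences were 0.01 ± 0.19, 0.18 ± 0.29 and 0.14 ± 0.35, with 95% intervals of -0.39 to 0.41, -0.43 to 0.80 and -0.60 to 0.87.

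**Figure D2:**
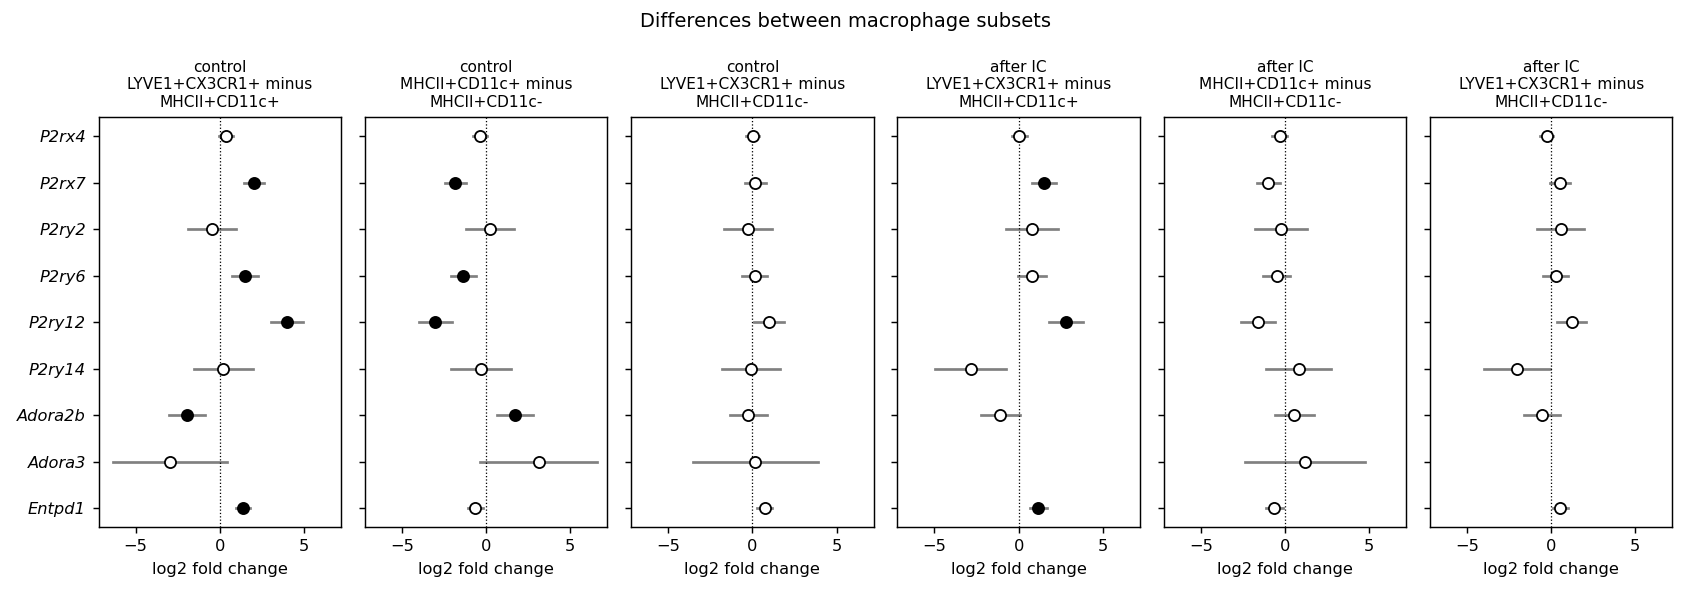
Fitted log2 fold changes between pairs of subsets (x axis, first subset minus second) with 95% intervals, in controls and after IC, filled where the adjusted p was under 0.05. The filled points are P2rx7, P2ry6, P2ry12, Adora2b and Entpd1 in the first panel, P2rx7, P2ry6, P2ry12 and Adora2b in the second, and P2rx7, P2ry12 and Entpd1 in the fourth. Adora3 is left out where all LYVE1+CX3CR1+ libraries after IC were at 0 counts.

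After IC, LYVE1+CX3CR1+ macrophages again expressed more P2rx7, P2ry12 and Entpd1 than those of the MHCII+CD11c+ subset. These were 3 of 9 members called, all higher, where 11.9% of all genes were called, 3.52% higher and 8.42% lower. The medians were 0.77 over the members and -0.12 over all genes. The MHCII+CD11c+ group had 2 libraries here, and without its replicate 2, which leaves 1 library assumed to vary like the other groups, all 3 calls were lost, at 1.2 for P2rx7, 2.46 for P2ry12 and 0.92 for Entpd1 (adjusted p = 0.133, 0.0520 and 0.113).

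P2rx7 was at 134, 202 and 129 CPM in LYVE1+CX3CR1+ macrophages after IC and at 67.6 and 40.9 CPM in MHCII+CD11c+ macrophages, a difference of 1.52 ± 0.33 (adjusted p = 0.00632). P2ry12 was at 80.7, 76.5 and 107 CPM against 16 and 8.61 CPM, a difference of 2.82 ± 0.48 (adjusted p = 0.00132), or 7.09-fold. Entpd1 was at 251, 326 and 380 CPM against 169 and 114 CPM, a difference of 1.17 ± 0.24 (adjusted p = 0.00224). None of the 3 overlapped between these groups of 3 and 2 libraries, which is a description only. Marker sums differed between these groups as well, with 5701 to 6714 against 2454 to 3113 CPM for macrophages and 4.15 to 21.6 against 724 to 973 CPM for monocytes and 6.61 to 10.8 against 155 to 200 CPM for dendritic cells, of whose 4 markers 3 were called (Flt3, Zbtb46 and Ccr7). Of 3 monocyte markers 1 was called (Ccr2). Of 4 mast cell markers 1 was called (Kit, at 0 against a mean of 11.6 CPM). Of 3 endothelial markers tested 1 was called (Kdr, at 0 against a mean of 11.1 CPM). The mast cell sums were 0 to 5.56 against 18.8 to 35.7 CPM. The neutrophil sums were 0 CPM in all LYVE1+CX3CR1+ libraries against 1.62 and 0.55 CPM. The endothelial sums overlapped, at 0.878, 34.6 and 4.98 CPM against 25.6 and 25.3 CPM. The part of these cell types was not tested. P2ry6 was at 150, 116 and 141 CPM against 90.5 and 68.2 CPM and did not pass the test (0.77 ± 0.39, adjusted p = 0.239). Adora2b, called in controls, was at 15.2, 8.18 and 6.64 CPM against 19.4 and 23.5 CPM. It did not pass the test after IC (-1.09 ± 0.57, adjusted p = 0.229).

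P2ry14 and Adora3 were scarce in LYVE1+CX3CR1+ macrophages after IC. P2ry14 had 3, 0 and 9 counts there, or 0.878, 0 and 3.73 CPM, against 12.3 and 8.80 CPM in MHCII+CD11c+ macrophages. The 2 groups did not overlap, and the difference of -2.84 ± 1.02 missed the threshold (adjusted p = 0.0688), with an adjusted p between 0.00188 and 0.0377 in the 5 alternatives that called it. Adora3 had 0 counts in all 3 LYVE1+CX3CR1+ libraries after IC and 16 and 15 counts in the MHCII+CD11c+ ones, and did not pass the test (adjusted p = 0.0892). Fewer genes were detected in this LYVE1+CX3CR1+ group at equal depth, as given above, and the part of that in these low values was not tested.

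The other 2 comparisons after IC had 0 of 9 members called. Between LYVE1+CX3CR1+ and MHCII+CD11c- macrophages, 5.54% of all genes were called, and 4 members and 3311 genes had an unadjusted p under 0.05. DESeq2 called 1 member there, P2ry12 (1.31, adjusted p = 0.0314), and voom called 0. P2ry12 was at 80.7, 76.5 and 107 CPM against 44.1, 50.5 and 18.4 CPM, again without overlap (1.22 ± 0.42, adjusted p = 0.102). Between MHCII+CD11c+ and MHCII+CD11c- macrophages, 4.03% of all genes were called, and 3 members and 2140 genes had an unadjusted p under 0.05. DESeq2 called 1 member (P2ry12) and voom 3 (P2rx7, P2ry12 and Entpd1). In edgeR, P2ry12 differed by -1.61 ± 0.48 (adjusted p = 0.0880), P2rx7 by -1 ± 0.33 (adjusted p = 0.127) and Entpd1 by -0.63 ± 0.24 (adjusted p = 0.183). Adora2b differed by 0.55 ± 0.56 with overlapping libraries (adjusted p = 0.802). Of the markers, 3 of 6 for macrophages were called lower and 3 of 4 for dendritic cells higher in MHCII+CD11c+ macrophages. For monocytes 0 of 3 and for neutrophils 0 of 4 were called. The neutrophil sum was 1.62 and 0.55 CPM in MHCII+CD11c+ and 1.11 to 14.8 CPM in MHCII+CD11c- libraries. The part of these cell types was not tested.

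For the response to IC itself, 0 of 9 members were called in each of the 3 subsets. The shares of all genes called were 0.963% for LYVE1+CX3CR1+, 0.701% for MHCII+CD11c- and 0.216% for MHCII+CD11c+ macrophages. An unadjusted p under 0.05 was found for 2, 2 and 0 members and for 2159, 1526 and 795 genes, and DESeq2 and voom called 0 members in each subset. The medians of the members were -0.17, 0.02 and 0.22, and those of all genes -0.14, -0.03 and 0.01. Of 5 LYVE1+CX3CR1+ sort markers, 1 was called higher after IC in MHCII+CD11c+ macrophages (Timd4, 50.4 against 11.4 CPM, adjusted p = 0.0113). Of 3 MHCII genes, 2 were called lower in LYVE1+CX3CR1+ macrophages (H2-Aa, 0.488 against 10.3 CPM, and H2-Eb1, 0 against 5.3 CPM). The macrophage marker sum in MHCII+CD11c+ libraries was 2454 to 3113 CPM after IC and 1430 to 2236 CPM in controls. The part of these marker differences was not tested.

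The intervals were narrowest for Entpd1 and P2rx4. For Entpd1 the responses were -0.17 ± 0.21, 0.02 ± 0.21 and 0.04 ± 0.24 in the LYVE1+CX3CR1+, the MHCII+CD11c- and the MHCII+CD11c+ subset, with 95% intervals of -0.61 to 0.27, -0.42 to 0.46 and -0.46 to 0.53. For P2rx4 they were -0.12 ± 0.19, 0.17 ± 0.19 and 0.22 ± 0.22, and no interval reached beyond -0.52 or 0.67. Wider intervals were found for P2rx7 (-1.03 to 0.20, -1.36 to -0.13 and -0.60 to 0.80) and P2ry12 (-1.17 to 0.56, -1.41 to 0.34 and -0.22 to 1.95). P2ry6 also had wide intervals, with -0.70 to 0.77 for LYVE1+CX3CR1+, -0.83 to 0.64 for MHCII+CD11c- and -0.07 to 1.59 for MHCII+CD11c+ macrophages. In the last subset P2ry6 was at 37.2, 76.7 and 25.3 CPM in controls and at 90.5 and 68.2 CPM after IC. The groups overlapped through control replicate 2, which stood apart from the other controls. Lyve1 was at 382 CPM in that replicate, at 29.8 and 25.3 CPM in the other controls and at 303 and 137 CPM after IC. Without control replicate 2 the response was 1.33 for P2ry6 (adjusted p = 0.0814) and 1.59 for P2ry12 (adjusted p = 0.300), with neither called. These larger values thus set controls with low Lyve1 against IC libraries with more of it, and the part of this was not tested. With control replicate 2 the response of P2ry12 was 0.87 and not called.

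The members with an unadjusted p under 0.05 for the response to IC were P2ry2 and P2ry14 in LYVE1+CX3CR1+ macrophages. In MHCII+CD11c- macrophages they were P2rx7 and Adora2b. P2ry2 was at 5.35, 1.89 and 3.07 CPM in LYVE1+CX3CR1+ controls and at 9.65, 7.24 and 17.4 CPM after IC (1.71 ± 0.68, adjusted p = 0.247). P2ry14 was at 5.98, 4.86 and 8.79 CPM in the controls and at 0.878, 0 and 3.73 CPM after IC (-2.15 ± 0.94, adjusted p = 0.293). Neither gene overlapped between the groups, both rested on at most 63 counts per library, and P2ry14 was called only in the model with surrogate variables (adjusted p = 0.0281). In MHCII+CD11c+ macrophages both genes also had no overlap between control and IC, with uncalled responses of 0.43 ± 0.75 and 0.90 ± 0.94. The share of all genes without overlap is not given for any comparison here.

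In MHCII+CD11c- macrophages, P2rx7 was at 154, 165 and 227 CPM in controls and at 118, 99.9 and 108 CPM after IC (-0.75 ± 0.30, adjusted p = 0.362; -0.81 without control replicate 2). Adora2b was at 7.46, 8.66 and 2.34 CPM in controls and at 12.4, 10.5 and 20.9 CPM after IC (1.21 ± 0.52, adjusted p = 0.417; 1.53 without control replicate 2). All IC libraries lay below the controls for P2rx7 and above them for Adora2b. In LYVE1+CX3CR1+ macrophages the same 2 genes had responses of -0.41 ± 0.30 and 0.93 ± 0.53 with overlapping libraries (adjusted p = 0.581 and 0.453).

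**Figure D3:**
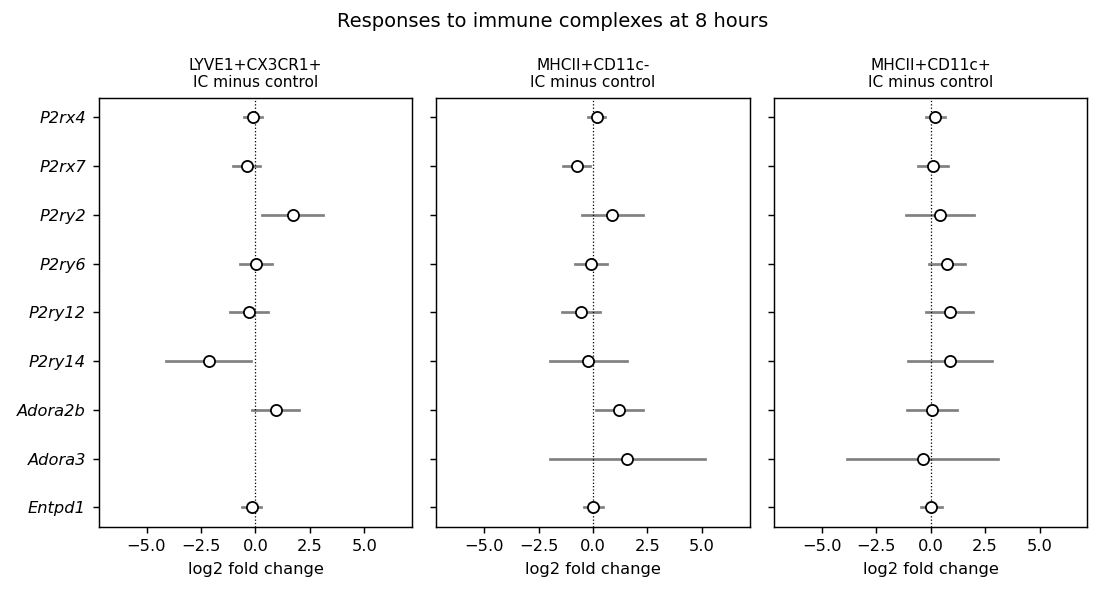
Fitted log2 fold changes of IC against control in each subset (x axis) with 95% intervals; no point is filled because no adjusted p was under 0.05. The intervals of P2rx4 and Entpd1 are the narrowest, and Adora3 in LYVE1+CX3CR1+ macrophages is left out because all IC libraries were at 0 counts.

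Responses to IC were also compared between subsets, as the difference of the responses of each pair. For each pair 0 of 9 members were called, where 0.0262% of all genes were called for LYVE1+CX3CR1+ minus MHCII+CD11c-, 0.0327% for LYVE1+CX3CR1+ minus MHCII+CD11c+ and 0% for MHCII+CD11c+ minus MHCII+CD11c-. DESeq2 and voom called 0 members as well, and 0, 1 and 1 members and 1152, 1225 and 496 genes had an unadjusted p under 0.05. The 2 members were P2ry14 (-3.05 ± 1.33, adjusted p = 0.555) in the second pair and P2ry12 (1.4 ± 0.67, adjusted p = 1) in the third.

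Across the 17 libraries, P2rx7, P2ry6, P2ry12 and Entpd1 varied together. Pearson's r of log2 CPM with P2ry12 was 0.909 for P2rx7, 0.851 for P2ry6 and 0.845 for Entpd1, and -0.801 for Adora2b. P2rx4 had r = 0.549 with P2ry12 and 0.558 with its neighbour P2rx7, and P2ry2 had r = 0.205 with its neighbour P2ry6. These values describe libraries of 3 subsets that differ as given above, and the libraries of a subset share its level.

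**Figure D4:**
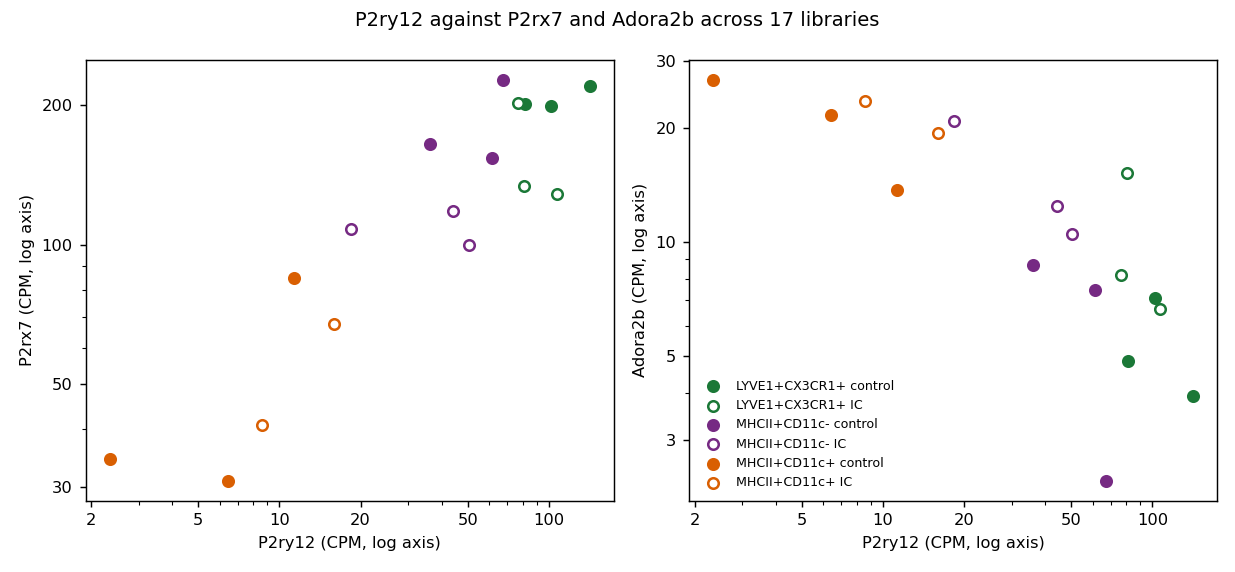
P2rx7 (left) and Adora2b (right) against P2ry12, 1 point per library, CPM on log axes, filled for control and open for IC and coloured by subset. The 5 MHCII+CD11c+ libraries lie at 2.34 to 16 CPM of P2ry12, with P2rx7 between 31.0 and 84.9 CPM and Adora2b between 13.7 and 26.8 CPM.

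The genes most like each member were sought by the same r over the 17 libraries, among 10204 genes with a mean of at least 5 CPM. Closest to P2ry12 were Tns2 (r = 0.977) and Abcc3 (0.974), to P2rx7 Fer (0.958) and Poglut3 (0.953), to Entpd1 Ttc28 (0.962) and Hpgds (0.946), and to P2ry6 Fblim1 (0.943) and B3gnt3 (0.942). Adora2b was most like Ssr1 (0.944) and Vasp (0.920). The remaining members had looser matches, P2rx4 with Pf4 (0.858) and Dip2c (0.844), P2ry14 with Pign (0.870) and Usp42 (0.815), and P2ry2 with Timm13 (0.828) and Ankzf1 (0.808). Adora3 fell below the minimum level. Pf4 was also 1 of 4 platelet markers, and the other 3 (Ppbp, Itga2b and Gp9) were at group means of at most 5.44 CPM.

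The rest of the pathway was described by 3 lists. Among other nucleotide and adenosine receptors, 10 of 12 listed genes were in the table and 6 were tested. In controls, LYVE1+CX3CR1+ against MHCII+CD11c+ macrophages had 1 called higher and 2 lower, or 3 of 6, beside 15.2% of all genes. P2ry13, a second ADP receptor, was higher (67.6 ± 13.6 against 6.03 ± 5.27 CPM, n = 3 each, adjusted p = 7.33e-06), in the same direction as P2ry12. Adora2a, the high-affinity adenosine receptor, was lower (1.81 ± 0.0798 against 17.4 ± 9.76 CPM, adjusted p = 0.00402), in the same direction as Adora2b. P2ry10, a receptor for lysophosphatidylserine, was also lower (1.08 ± 1.39 against 88.9 ± 23.9 CPM, adjusted p = 1.04e-05), and reads of this gene and of its copy P2ry10b may be split.

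Among 17 genes of nucleotide release and breakdown, 15 were in the table and 9 were tested, and in the same comparison 1 of 9 was called, higher, beside 15.2% of all genes. It was Enpp1, an ectoenzyme that cleaves ATP to AMP, with 65.0 ± 10.2 CPM in LYVE1+CX3CR1+ and 6.98 ± 8.83 CPM in MHCII+CD11c+ controls (3.11 ± 0.78, adjusted p = 0.0203). The connexin gene Gja1 was the 1 called after IC, where 11.9% of all genes were, with 38.8 ± 8.17 CPM (n = 3) against 2.99 ± 0.342 CPM (n = 2; adjusted p = 0.0159). Nt5e, which encodes CD73, was low in all groups, with means of 1.84 to 10.9 CPM. Entpd2, Entpd3 and Entpd8, the other ectoenzyme genes of the Entpd family, were at group means of 0 to 0.881 CPM.

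All 8 genes of adenosine uptake and metabolism were tested. In controls, LYVE1+CX3CR1+ against MHCII+CD11c+ macrophages had 2 called higher, the nucleoside transporters Slc29a1 (0.91 ± 0.25, adjusted p = 0.0152) and Slc28a2 (0.91 ± 0.24, adjusted p = 0.0117), and 1 lower, or 3 of 8 beside 15.2% of all genes. The lower one was Dpp4, which encodes the adenosine deaminase-binding protein CD26, at 0.0990 ± 0.0862 against 69.4 ± 30.9 CPM (adjusted p = 1.36e-06). After IC, Dpp4 had 0 counts in all 3 LYVE1+CX3CR1+ libraries and was at least 52.1-fold higher in MHCII+CD11c+ macrophages, against the floor per library. In that comparison 2 of 8 were called lower and 0 higher, beside 11.9% of all genes. Against MHCII+CD11c- macrophages after IC 4 of 8 were called lower and 0 higher, beside 5.54%. Slc28a2 was among these, at means of 66.4 against 155 CPM (adjusted p = 0.00352). No gene of the 3 lists was called for the response to IC in any subset, nor for a difference of responses.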

How the data were processed

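RNA was prepared for sequencing with a stranded kit for small inputs, per the labels. The authors trimmed reads with Trim Galore, aligned them to mm10 with HISAT2, counted them per gene with featureCounts and deposited raw counts. Versions, annotation and use of the strand are not given in the sources used here. One column of the joint table (1 unmatched column) fitted no sample label and was not used. Genes were kept with filterByExpr (minimum count of 10) and tested in R 4.3.3 with edgeR 4.0.16 (TMM, glmQLFit with the robust option) in 1 model over 6 groups, with 11 residual degrees of freedom and Benjamini-Hochberg adjustment over 15272 genes. Code was tested on simulated data. SE and 95% intervals are of the fitted log2 fold change. DESeq2 1.42.0, voom of limma 3.58.1 and sva 3.50.0 gave alternatives, with other scaling, no low-count filter, fits of the compared groups alone, equal depth, a replicate block and leave-one-out fits. Genes named were the members, genes called in 3 pathway lists, and per member the 2 genes with the highest r. Members and lists were chosen with earlier results of these data known. Floors cover counting error only.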

Additional observations from a re-analysis of the deposited data

How the results depend on the processing

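Of 12 called differences, 4 were kept under every alternative: P2rx7, P2ry12 and Entpd1 for LYVE1+CX3CR1+ against MHCII+CD11c+ controls, and P2rx7 between MHCII+CD11c+ and MHCII+CD11c- controls. Of 96 differences that were not called, 82 were called under no alternative, and 0 called values reversed. The number of members called moved as follows, and the cause was not tested. With surrogate variables it was 1 for IC in LYVE1+CX3CR1+, 1 for MHCII+CD11c+ against MHCII+CD11c- in controls, and after IC 2 for LYVE1+CX3CR1+ against MHCII+CD11c- and 5 against MHCII+CD11c+. P2ry6 then lost its call between LYVE1+CX3CR1+ and MHCII+CD11c+ controls (adjusted p = 0.0627). Adora2b lost its call between MHCII+CD11c+ and MHCII+CD11c- controls with no low-count filter, groups alone, equal depth and surrogate variables (adjusted p = 0.0563 to 0.256). Voom gave 7 in place of 5 for LYVE1+CX3CR1+ against MHCII+CD11c+ controls (P2rx4 and Adora3 added), voom and DESeq2 4 in place of 3 for that pair after IC, and voom 2 for LYVE1+CX3CR1+ against MHCII+CD11c- in controls and 3 for MHCII+CD11c+ against MHCII+CD11c- after IC, and fits of the compared groups alone gave 1 for each of the same comparisons. DESeq2 gave 1 for each comparison with MHCII+CD11c- after IC, and equal depth gave 1 for LYVE1+CX3CR1+ against MHCII+CD11c- after IC. Leaving out 1 library at a time gave 4 to 5 for LYVE1+CX3CR1+ against MHCII+CD11c+ and 2 to 4 for MHCII+CD11c+ against MHCII+CD11c- in controls. After IC it gave 0 to 1 for LYVE1+CX3CR1+ against MHCII+CD11c-, 0 to 4 against MHCII+CD11c+, and 0 to 1 for MHCII+CD11c+ against MHCII+CD11c-. The replicate block gave 4 members between LYVE1+CX3CR1+ and MHCII+CD11c+ after IC, where P2ry14 was added (adjusted p = 0.0377). Replicate numbers were not taken as pairs, since deviations of same-numbered libraries did not correlate at over 0.1 in every pair. Within a treatment they correlated at 0.00129 to 0.286, the highest between replicate 2 of MHCII+CD11c- and of MHCII+CD11c+ controls. Such correlations cannot exclude that same-numbered libraries came from the same mice. In 6 of 12 ordered pairs of groups every library correlated best with its own number, among them both directions between MHCII+CD11c- and MHCII+CD11c+ controls, a hint from the data and not the design. Scaling by size factors shifted the median of all genes by 0.131 and 0.167 for the differences of responses that involve LYVE1+CX3CR1+ macrophages and by 0.102 for LYVE1+CX3CR1+ against MHCII+CD11c+ after IC. P2ry2, P2ry14, Adora2b and Adora3 had at most 132 counts in any library, which limits what could be detected for them.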
